A study of Drosophila melanogaster with 11 samples.

Results

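The comparison described here is the addition of paraquat to flies that were already feeding on nicotine. It rests on 6 of the 11 arrays of the study, chosen by their titles alone: 3 arrays of flies kept on food with both chemicals (the joint exposure) and 3 arrays of flies kept on food with nicotine only. All flies were adult females of the genotype w1118, collected within a day of eclosion, and each array measured RNA from a pool of 20 heads. For 16 days the nicotine flies had nicotine at 0.1 mg/ml in their food. The joint flies ate the same dose for the same 16 days, of which the first 10 were pretreatment, and had 5 mM paraquat in the food for the last 6 days. Nicotine was therefore common to both groups, and the controls of this comparison were not untreated. The other arrays, 3 of flies on plain food (control) and 2 of flies on plain food with paraquat, entered the model as sources of the error estimate and gave the paraquat effect without nicotine. The labels name the replicates biological but do not say that they came from separate cultures, so p-values measure the spread between pools.

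Paraquat is a herbicide that takes electrons from cellular reductases and passes them to oxygen, which yields superoxide. In flies it is widely used to provoke oxidative stress, and dopaminergic neurons are among the cells studied after such exposure. Insects meet foreign chemicals with a sequence of enzymes: cytochrome P450s, aldehyde and carbonyl oxidoreductases modify the molecule, glutathione S-transferases and UDP-glycosyltransferases attach a group that makes it easier to excrete. Nicotine is itself a plant toxin that acts on acetylcholine receptors and that P450 enzymes can break down.

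Each value is a log2 expression level of a probe set, a group of probes for one transcript. Of the probe sets on the arrays, 9104 reached log2 4 on at least 2 of the 11 arrays and were tested, and 9665 others did not. The weakest probe set kept had a second-highest value of 4.00537 and the strongest one left out had 3.99918. On single arrays 8729 to 9001 exceeded log2 4. Correlated with the remaining arrays, joint replicate 1 stood apart (mean r of 0.914, and up to 0.965 elsewhere). Transcripts that define neurons (12.31 to 13.15 on the joint arrays, 13.14 to 13.64 on the nicotine arrays, as log2 of the summed marker signal), photoreceptors (16.35 to 16.49 and 16.13 to 16.60) and head fat body (17.01 to 17.81 and 17.77 to 17.89) were high on every array, as the head label implies. Midgut markers were present too. Their summed level was 12.55 to 16.21 on the joint arrays, 8.26 to 12.39 on the nicotine arrays, 9.24 to 12.29 in control and 10.40 to 10.85 with paraquat alone, and none of the 6 was at background on all arrays. Ovary markers summed to 5.39 to 8.25 on the joint arrays and 5.33 to 9.425 on the nicotine arrays. They summed to 5.23 to 6.34 in control and 5.23 to 5.63 with paraquat alone. In pooled heads, a change in the number of cells of a type and a change of RNA per cell cannot be told apart.

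With paraquat added to nicotine, transcripts rose for some detoxifying enzymes, such as Cyp6d2 and AOX1, for a DNA end-binding protein and for 3 kinase-like proteins. A P450 gene, a gene each of tyrosine breakdown, polyamine synthesis and odorant binding, and a gene known by number fell. By limma with Benjamini-Hochberg adjustment over 9104 probe sets, 41 were called at an adjusted p below 0.05. Of these, 36 were higher (0.395% of all tested) and 5 lower (0.0549%). Rises had a median of 2.67 log2 and falls one of -2.28. With values below log2 4 set to that level where a whole group lay there, 39 of the 41 changed at least 2-fold and 26 at least 4-fold, and CG1575 and CG13833, named because they are the exceptions, had bounds of 1.31-fold and 1.17-fold. The 3 joint arrays did not overlap the 3 nicotine arrays in any of the 41, which selection by p makes likely. Among all genes, with 1 probe set each, 8.84% lay wholly above and 7.12% wholly below. Of the 41 probe sets, 35 named 1 gene, 1 named several and 5 named none. The median over all tested probe sets was -0.02. Without adjustment, 1050 probe sets had p below 0.05, 618 higher and 432 lower, where 455 would be reached by chance alone. The number of calls hung on the settings and on single arrays. It was 2 with only the 6 arrays compared and 9 without the low-value filter, settings that ended the calls of 18 and 15 of the 20 genes named by size, and 312 with array weights. It fell to 12 when nicotine replicate 1 was left out and to 16 for nicotine replicate 3, and it was 25 without either paraquat array and 26 without control replicate 2. It was 63 without joint replicate 3 and 242 without joint replicate 2, and all 41 were among those 242.

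**Figure D1:**
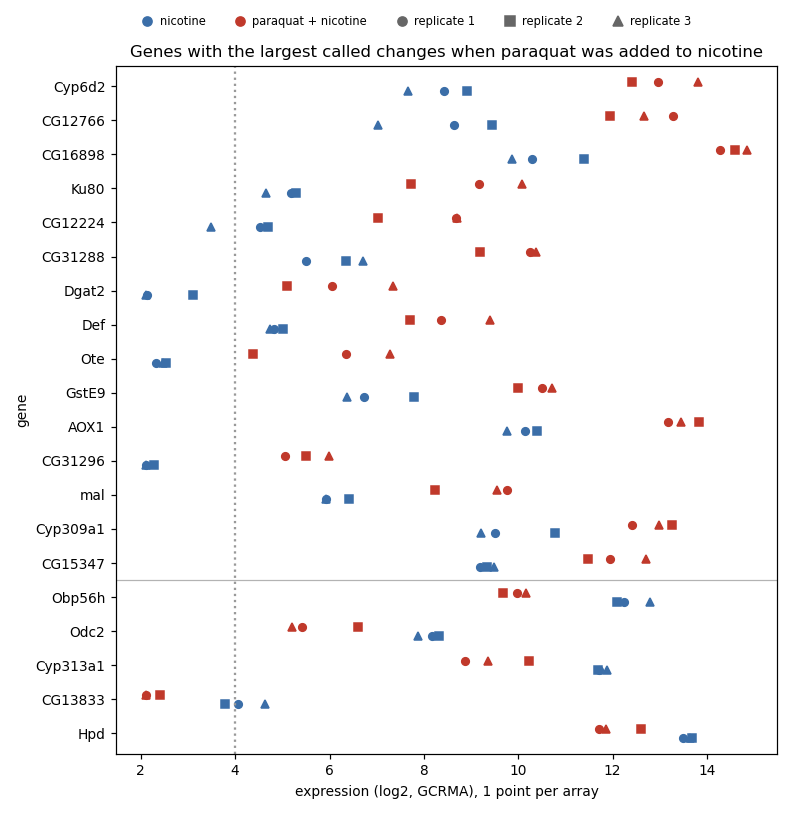
Expression (log2, horizontal axis) of the 15 genes with the largest called rises and, below the line, the 5 genes called lower, with 1 point per array, blue for nicotine and red for paraquat with nicotine, and 1 symbol per replicate number. The dotted line marks log2 4, the level of the low-value filter. In each gene the red points lie to one side of the blue points, and joint replicate 2 (red squares) is often the least changed.

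The largest called rise was that of Cyp6d2, a cytochrome P450 gene. Its level was 8.44, 8.92 and 7.66 log2 on the nicotine arrays and 12.97, 12.41 and 13.81 on the joint arrays. The lowest joint array was thus far above the highest nicotine array, and the fitted rise was 4.73 ± 0.45 log2 (SE, n = 3 and 3, 26.5-fold, limma adjusted p = 0.00308). Cyp309a1, another P450 gene, went from 9.52, 10.78 and 9.22 to 12.42, 13.25 and 12.98 (3.05 ± 0.42, 8.26-fold, adjusted p = 0.0163), a call lost without nicotine replicate 1 or 3. Cyp313a1 moved the opposite way. It lay between 11.70 and 11.89 on the nicotine arrays and at 8.87, 10.23 and 9.36 on the joint arrays, a fall of 2.28 ± 0.35 log2 (4.85-fold, adjusted p = 0.0256). That call ended without control replicate 1 or 2, joint replicate 1 or 3, or any nicotine array. Cyp12c1, of a mitochondrial P450 family, was higher on every joint array (1.86, adjusted p = 0.0666) but was not called. Of the 58 P450 genes tested, 2 were called higher and 1 lower, against 29 higher (0.396%) and 5 lower (0.0683%) of all 7316 genes when each is represented by 1 probe set. The joint arrays lay wholly above the nicotine arrays in 9 P450 genes and wholly below in 9. Among all genes these shares were 8.84% (647) and 7.12% (521). The median P450 change was -0.06.

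Aldehyde and carbonyl oxidoreductases held 2 of the called rises, and a cofactor gene that serves them held another. AOX1, an aldehyde oxidase gene, lay at 10.14, 10.40 and 9.76 on the nicotine arrays and at 13.18, 13.83 and 13.45 on the joint arrays. Its change of 3.39 ± 0.27 log2 (10.5-fold, adjusted p = 0.00127) was called under each of the 20 alternative settings run. The product of mal adds sulfur to the molybdenum cofactor that aldehyde oxidases and xanthine dehydrogenase need to work. The level of mal rose from 5.93, 6.40 and 5.93 to 9.76, 8.24 and 9.54 (3.09 ± 0.41, 8.53-fold, adjusted p = 0.0163). That call was lost without nicotine replicate 1 or nicotine replicate 3. The gene of xanthine dehydrogenase itself, ry, was at 8.54, 9.13 and 8.21 on the nicotine arrays and at 9.30, 9.43 and 9.78 on the joint arrays. The 3 joint values were the highest, but the change of 0.87 ± 0.27 did not pass (adjusted p = 0.233). CG12766, of the aldo-keto reductase family, rose by 4.25 ± 0.60 log2 (19.1-fold, adjusted p = 0.0163), from 8.64, 9.44 and 7.03 to 13.27, 11.94 and 12.66, and was not called without joint replicate 1 or nicotine replicate 1. The carbonyl reductase gene sni had a change of 0.97 (adjusted p = 0.114). Of 9 genes in this list 2 were called, both higher (against 0.396% of all genes). The joint arrays lay wholly above in 4 (44.4%, against 8.84% of all genes) and wholly below in 0, and the median was 0.10.

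Enzymes that attach a group to foreign molecules rose in part. GstE7 went from 9.42, 10.01 and 8.85 to 11.37, 11.93 and 11.70 (2.24 ± 0.30 log2, adjusted p = 0.0163), and GstD3 from 8.14, 8.67 and 8.03 to 10.59, 10.00 and 10.78 (2.18 ± 0.30, adjusted p = 0.0163). Neither call held without nicotine replicate 1 or 3, nor that of GstD3 without joint replicate 1. GstE9 has 2 tested probe sets that disagreed. The dimmer of them rose by 3.44 ± 0.55 log2 (10.8-fold, adjusted p = 0.0332), from 6.73, 7.80 and 6.38 to 10.50, 10.00 and 10.72, while the brighter was at 0.22 ± 0.26 (adjusted p = 0.817). The call of the dimmer was lost with a covariate for RNA integrity, with a replicate block, with only the 6 arrays compared and without the low-value filter. It was also lost in 7 of the 11 settings that leave out an array. Those arrays were control replicate 2, either paraquat array, joint replicate 1 or 3, and nicotine replicate 1 or 3. GstD1, which is abundant in the head, was higher by 0.72 ± 0.23 without passing (adjusted p = 0.262). With each gene represented by its brightest probe set, 2 of 31 glutathione S-transferase genes were called, both higher (against 0.396% of all genes). Of the 31, 7 lay wholly above and 1 wholly below (22.6% and 3.23%, against 8.84% and 7.12% of all genes). The 1 below was GstZ2 (-2.15, adjusted p = 0.193), described again with tyrosine breakdown. Of 16 UDP-glycosyltransferase genes Ugt49C1 was called, at 10.24, 10.30 and 9.84 on the nicotine arrays and 11.80, 11.57 and 12.20 on the joint arrays (1.73 ± 0.22, 3.31-fold, adjusted p = 0.0139), a call lost without nicotine replicate 1 or 3. Ugt301D1 was higher on each joint array without passing (1.501, adjusted p = 0.137). Ugt49C1 was the 1 call of the 16, where 0.396% of all genes were called higher. In that list 4 lay wholly above and 2 wholly below (25.0% and 12.5%, against 8.84% and 7.12% of all genes). The medians of the transferase and UDP-glycosyltransferase lists were 0.17 and 0.00.

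The ecdysteroid kinase-like family has members that resemble small-molecule kinases. It held 3 called genes out of 35, all higher, against 29 higher calls among all 7316 genes (0.396%). CG16898 was already abundant and reached 14.28, 14.60 and 14.85 from 10.29, 11.40 and 9.86 (4.06 ± 0.37, 16.6-fold, adjusted p = 0.00247). CG31288 rose from 5.49, 6.36 and 6.71 to 10.24, 9.19 and 10.38 (3.75 ± 0.38, 13.4-fold, adjusted p = 0.00459). CG13659 rose from 5.23, 5.36 and 4.43 to 7.11, 7.37 and 8.46 (2.64 ± 0.43, 6.24-fold, adjusted p = 0.0381), a call lost in 9 of the 11 settings that leave out an array, the exceptions being control replicate 3 and joint replicate 2. The other 2 calls held in all 11. The largest difference of the family, in CG31104, was not called: its joint arrays lay at 12.24, 9.94 and 7.87 and its nicotine arrays at 4.72, 3.24 and 5.495 (5.54 ± 1.01, adjusted p = 0.0628). The joint arrays lay wholly above in 9 members and wholly below in 5 (25.7% and 14.3%, against 8.84% and 7.12% of all genes), and the family's median was 0.12.

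**Figure D2:**
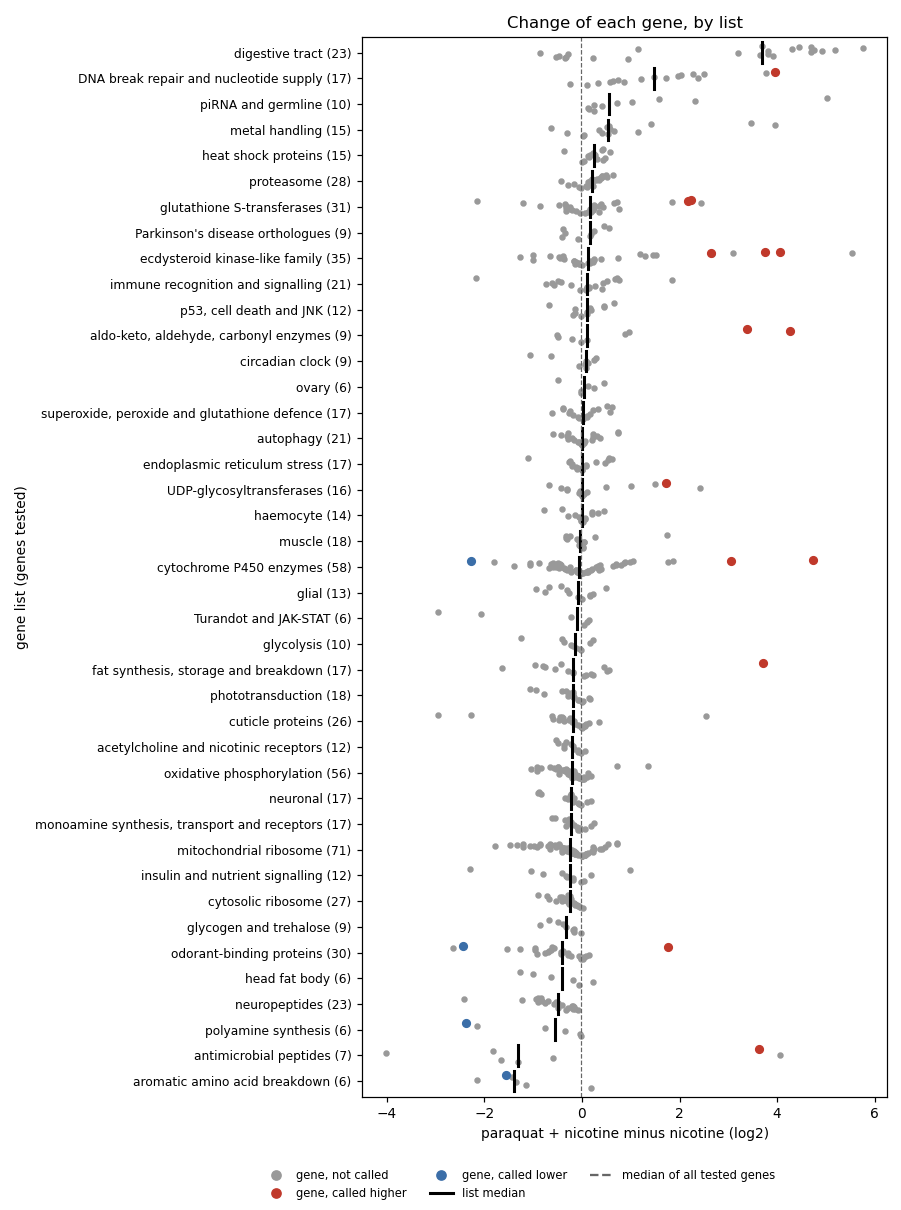
Log2 change (paraquat with nicotine minus nicotine) of each gene, by list, for lists with at least 6 tested genes, whose number stands in brackets. Black bars are list medians, the dashed line is the median of all tested genes (-0.01), and red and blue points are genes called higher or lower. The digestive tract and DNA break repair lists have the highest medians (3.69 and 1.48) and the aromatic amino acid breakdown list the lowest (-1.40).

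In the list of DNA break repair and nucleotide supply, 16 of 17 genes had a change above 0 and 1 passed the test. Ku80 encodes a subunit of the ring that grips broken DNA ends before they are joined. It went from 5.18, 5.29 and 4.66 on the nicotine arrays to 9.16, 7.73 and 10.08 on the joint arrays (3.95 ± 0.55 log2, 15.4-fold, adjusted p = 0.0163). That call was lost without joint replicate 1, nicotine replicate 1 or nicotine replicate 3. DNAlig4, the ligase of the same route, lay at 6.36, 6.75 and 6.79 and then at 8.97, 7.89 and 9.84 (2.27 ± 0.45, adjusted p = 0.0751). RnrL, the large subunit of the enzyme that makes deoxyribonucleotides, lay at 6.49, 7.33 and 5.96 and then at 10.66, 8.95 and 11.51 (3.78 ± 0.70, adjusted p = 0.0650). In both genes the 3 joint values were the highest, yet neither passed. RPA2, whose product coats single-stranded DNA, was at or below 3.84 on the nicotine arrays and at least 3.80-fold higher on the joint arrays (adjusted p = 0.0808). Of the 17 genes tested 1 was called, and it was higher (against 0.396% of all genes). The joint arrays lay wholly above in 12 (70.6%, against 8.84% of all genes) and wholly below in 0, and the list median was 1.48 log2. In the list of p53, cell death and JNK genes 0 of 12 were called. There p53 had a change of 0.66 ± 0.29 (adjusted p = 0.419), and its joint and nicotine arrays overlapped.

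Of the metal-handling genes most had a positive change and none was called. The metallothionein gene MtnD, whose product binds metal ions, lay at 7.72, 7.43 and 8.30 on the nicotine arrays and at 12.04, 9.74 and 12.06 on the joint arrays (3.46 ± 0.66 log2, adjusted p = 0.0693). MtnC, another metallothionein, lay at 3.46, 3.64 and 5.65 and then at 9.76, 8.48 and 6.36 (3.95 ± 0.91, adjusted p = 0.125). Fer1HCH, a subunit of the iron store ferritin, differed little but evenly, with 14.61, 14.68 and 14.51 against 15.13, 15.23 and 15.13 (0.56 ± 0.13, adjusted p = 0.137). Irp-1B, an iron regulatory protein gene, had a change of 1.41 (adjusted p = 0.0775). Of 15 genes 0 were called, while 9 lay wholly above, 1 wholly below (60.0% and 6.67%, against 8.84% and 7.12% of all genes) and 13 had a change above 0, with a median of 0.54. In the superoxide, peroxide and glutathione list, 0 of 17 genes were called. Cat (catalase) had a change of 0.10 ± 0.18, Sod2 of -0.39 ± 0.24 and Trxr1 (thioredoxin reductase) of 0.51 ± 0.21 log2. The list median was 0.02, and 2 members lay wholly above and 0 wholly below (11.8% and 0%, against 8.84% and 7.12% of all genes).

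In each of the routes that break down tyrosine and make polyamines, 1 gene was called lower and most others had negative changes. Tyrosine is first stripped of its amino group by the product of Tat, the product of Hpd then turns the acid into homogentisate, and the products of hgo, the GstZ genes and Faa carry it to fumarate and acetoacetate. Hpd fell from 13.49, 13.69 and 13.65 on the nicotine arrays to 11.72, 12.60 and 11.85 on the joint arrays (by 1.55 ± 0.26 log2, 2.93-fold, adjusted p = 0.0396). That call held without control replicate 3 and without joint replicate 2, and it ended without any of the other 9 arrays. Faa lay at 9.40, 9.28 and 9.85 and then at 7.47, 8.45 and 8.31 (-1.43 ± 0.27, adjusted p = 0.0666). Tat was at 12.31, 12.34 and 12.70 and then at 10.01, 11.77 and 11.49 (-1.36, adjusted p = 0.222), with GstZ2 at -2.15. Of 6 genes tested in this list 1 was called, and it was lower (against 0.0683% of all genes). Wholly below lay 5 (83.3%, against 7.12% of all genes) and wholly above 0, with a median of -1.40.

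Odc2 encodes ornithine decarboxylase, which makes putrescine, the first polyamine. It fell from 8.17, 8.32 and 7.88 to 5.41, 6.60 and 5.21 (by 2.38 ± 0.39 log2, 5.22-fold, adjusted p = 0.0381), a call kept in 2 of the 11 settings that leave out an array. Its neighbour in function Odc1 lay at 11.76, 11.29 and 12.47 and then at 8.80, 10.74 and 9.53 (-2.15 ± 0.50, adjusted p = 0.131). SpdS (spermidine synthase) had a change of -0.76 and SamDC of -0.34, neither called. Of 6 polyamine genes 1 was called, and it was lower (against 0.0683% of all genes). Wholly below lay 3 (50.0%, against 7.12% of all genes).

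**Figure D3:**
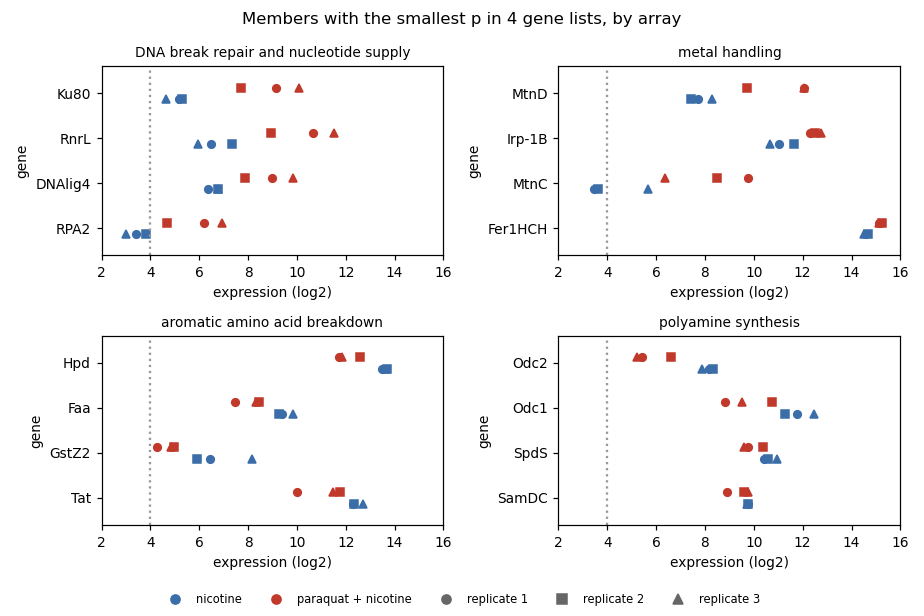
Expression (log2, horizontal axes) of the 4 genes with the smallest p in each of 4 lists, with 1 point per array, blue for nicotine and red for paraquat with nicotine. Red points lie to the right in the DNA repair and metal lists and to the left in the amino acid and polyamine lists, except for SamDC, where they overlap.

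Genes used on the sensory surface and in immunity moved in both directions. Obp56h, an odorant-binding protein gene, fell from 12.24, 12.09 and 12.79 to 9.97, 9.67 and 10.17 (by 2.44 ± 0.22 log2, 5.42-fold, adjusted p = 0.00247), and the call held whichever array was left out. Obp99b rose from 13.46, 13.24 and 13.42 to 14.99, 15 and 15.42 (1.76 ± 0.22, 3.39-fold, adjusted p = 0.0111), and it was not called without nicotine replicate 1. These were the 2 calls among 30 odorant-binding genes (of all genes, 0.396% were called higher and 0.0683% lower). Of the 30, 10 lay wholly below (33.3%, against 7.12% of all genes) and 1 wholly above (3.33%, against 8.84%), with a median of -0.41. Def, which encodes the antimicrobial peptide defensin, rose from 4.83, 5.02 and 4.73 to 8.36, 7.70 and 9.39 (3.62 ± 0.55, 12.3-fold, adjusted p = 0.0256). That call was lost without either paraquat array, joint replicate 1 or any nicotine array, with a covariate for RNA integrity, with only the 6 arrays compared, and without the low-value filter. Drs (drosomycin) had no such rise, at 14.70, 13.38 and 14.78 on the nicotine arrays and 11.76, 13.38 and 12.24 on the joint arrays (-1.82 ± 0.48, adjusted p = 0.170). AttD (attacin) lay at 2.34 to 2.497 on the nicotine arrays and at 8.82, 2.48 and 8.07 on the joint arrays, so joint replicate 2 did not share the difference (adjusted p = 0.291). Def was the 1 call among 7 antimicrobial peptide genes (0.396% of all genes were called higher). Of the 7, 1 lay wholly above and 2 wholly below (14.3% and 28.6%, against 8.84% and 7.12% of all genes). Their median change was -1.31, and it ran from -1.86 to -0.48 when 1 array was left out. Relative to the nicotine mean, the list's median was -2.52, -0.28 and -0.76 in joint replicates 1, 2 and 3. None of 21 immune recognition and signalling genes was called, 13 had a change above 0, and their median was 0.10. Of them 5 lay wholly above and 3 wholly below (23.8% and 14.3%, against 8.84% and 7.12% of all genes). Among the 3 was PGRP-SB1, a bacterial peptidoglycan-binding protein gene (-2.17, adjusted p = 0.180).

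Several of the remaining large changes belong to genes with other roles or known by number only. Dgat2, of the enzyme family that makes storage fat, lay below log2 4 on all nicotine arrays (2.14, 3.11 and 2.11) and at 6.05, 5.10 and 7.34 on the joint arrays, at least 4.48-fold higher with values under log2 4 set to that level (adjusted p = 0.0439). Ote, which encodes a protein of the nuclear lamina, was at 2.33, 2.54 and 2.48 and then at 6.34, 4.37 and 7.29, at least 3.997-fold higher (adjusted p = 0.0488). The calls of Dgat2 and Ote were lost in 8 and 10 of the 11 settings that leave out an array. CG31296 likewise lay below log2 4 on the nicotine arrays (2.11, 2.28 and 2.11) and reached 5.07, 5.503 and 6.00. It was at least 2.87-fold higher (adjusted p = 0.000477). That p rests on values near the floor of the scale with almost no spread on the control and nicotine arrays. Together with Dgat2, Ote, CG1575 and CG13833 it is among 5 called genes that passed the low-value filter only through the arrays where they were high, so a difference was needed for them to be tested at all. CG12224 rose by 3.90 ± 0.47 log2 (14.9-fold, adjusted p = 0.0108) and CG15347 by 2.70 ± 0.34 (6.50-fold, adjusted p = 0.0137), the latter not without nicotine replicate 1 or 3. CG13833 lay at 4.05, 3.78 and 4.64 and then at 2.11, 2.42 and 2.11, at least 1.17-fold lower (adjusted p = 0.0108). Chosen after their values were seen, su(r), which breaks down pyrimidines, rose by 1.69 ± 0.22 (adjusted p = 0.0139), and mbf1, a transcription coactivator, by 1.502 ± 0.16 (adjusted p = 0.00689). The genes Alr and Afg3l2, for a mitochondrial sulfhydryl oxidase and a mitochondrial protease, rose by 1.43 ± 0.17 (adjusted p = 0.00973) and 1.21 ± 0.18 (adjusted p = 0.0206). The call of su(r) was lost without nicotine replicate 1 or 3 and that of Afg3l2 in 7 of the 11 settings that leave out an array (it held without control replicates 1 and 3, joint replicate 2 and nicotine replicate 2).

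Transcripts of the nervous system had mostly small negative changes, of which none passed the test. All 23 neuropeptide genes had a change below 0, with a median of -0.50 log2, and 7 lay wholly below (30.4%, against 7.12% of all genes). The eclosion hormone gene Eh lay at 10.72, 10.50 and 10.40 and then at 9.74, 9.92 and 9.42 (-0.85 ± 0.18, adjusted p = 0.0993). Nplp3 had a change of -0.90 (adjusted p = 0.181). For dopamine synthesis, ple, which encodes tyrosine hydroxylase, had a change of -0.27 ± 0.21 (adjusted p = 0.693) and Ddc of -0.16 ± 0.20 (adjusted p = 0.835). Pink1, an orthologue of a gene of inherited Parkinson's disease, was at -0.38 ± 0.23 (adjusted p = 0.582). Of 17 monoamine, 12 cholinergic, 17 neuronal, 18 phototransduction and 9 Parkinson's disease genes 0 were called, and the medians were -0.22, -0.21, -0.22, -0.18 and 0.16. Relative to the nicotine mean, the neuronal list's median was -0.05, -0.09 and -0.36 on the joint arrays and 0.15, 0.15 and -0.35 on the nicotine arrays. For phototransduction it was 0.05, -0.16 and -0.33, and 0.11, 0.03 and -0.18. In both lists nicotine replicate 3 thus lay within the joint range. Of the 12 cholinergic genes 2, ChT (-0.53) and VAChT (-0.33), lay wholly below the nicotine arrays (16.7%, against 7.12% of all genes), without passing. The 3-prime minus 5-prime difference of the control probe sets, a measure of RNA integrity, was 9.50, 6.90 and 9.58 log2 on the joint arrays and 7.24, 7.18 and 9.30 on the nicotine arrays. Its part in these differences was not tested gene by gene, and 38 probe sets were called with it as a covariate, 33 of them among the 41.

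Other metabolic and nutrient genes gave few calls. In the fat list Dgat2 was the 1 call of 17 (0.396% of all genes were called higher). The sugar-responsive transcription factor gene sug lay at 11.88, 11.69 and 12.27 and then at 8.89, 10.78 and 9.32 (-2.29 ± 0.41 log2, adjusted p = 0.0551). ImpL2, which encodes a secreted protein that binds insulin, was at 11.08, 10.98 and 11.24 and then at 11.52, 12.24 and 12.46 (0.97, adjusted p = 0.137). Both had groups that did not overlap. Of 12 insulin and nutrient genes 1 lay wholly above and 3 wholly below (8.33% and 25.0%, against 8.84% and 7.12% of all genes). All 9 glycogen and trehalose genes had a change below 0 with 0 called. Of them 2, trehalase (Treh, -0.68) and the trehalose transporter gene Tret1-1 (-0.49), lay wholly below (22.2%, against 7.12% of all genes). Gpdh1, of glycerol-3-phosphate metabolism, has 4 tested probe sets whose changes ran from -0.15 to -1.35, and 3 of them lay wholly below without passing (smallest adjusted p = 0.146). In the proteasome list 23 of 28 genes had a change above 0 and 6 lay wholly above (21.4%, against 8.84% of all genes), with a median of 0.21 and 0 calls. Relative to the nicotine mean, the list's median was -0.11, 0.34 and 0.49 in joint replicates 1, 2 and 3. It was 0.13 in nicotine replicate 3, so joint replicate 1 did not share the rise. The storage protein gene Lsp2 of the fat body was at 14.89, 15.39 and 14.89 and then at 13.07, 15.13 and 13.16, where joint replicate 2 stayed within the nicotine range (-1.27, adjusted p = 0.338). In the piRNA and germline list all 10 genes had a change above 0 and 0 were called. There aub, a Piwi protein gene, lay at 3.77, 5.77 and 3.62 and then at 8.96, 8.92 and 10.34 (5.02 ± 1.07, adjusted p = 0.0993).

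Digestive enzyme transcripts separated the joint arrays from each other. The median of 23 digestive tract genes was 3.69 log2, the highest of any list, but 0 were called, 4 lay wholly above (17.4%, against 8.84% of all genes) and 0 wholly below. Relative to the nicotine mean, the list's median was 4.97 in joint replicate 1, 3.49 in replicate 2 and 0.15 in replicate 3. Mal-A1, a maltase gene, lay at 9.23, 7.91 and 10.55 on the nicotine arrays and at 15.05, 12.72 and 10.98 on the joint arrays (adjusted p = 0.151). Jon99Ci, a serine protease gene, was at 2.12, 2.11 and 2.54 and then at 11.08, 10.58 and 2.41 (adjusted p = 0.258). Joint replicate 3 thus lay with the arrays without joint exposure in the second gene. The order of the joint arrays was different among the called genes. For the 36 called higher, joint replicate 2 was the least changed in 22, replicate 1 in 13 and replicate 3 in 1. The median shift of the 41 called probe sets from the nicotine mean, with falls turned positive, was 2.31, 2.13 and 2.499 log2 in replicates 1, 2 and 3. The 41 were chosen on these same arrays, by a test that disfavours spread between them. These counts and shifts are therefore a description only, and the part of the digestive signal in the calls was not tested.

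**Figure D4:**
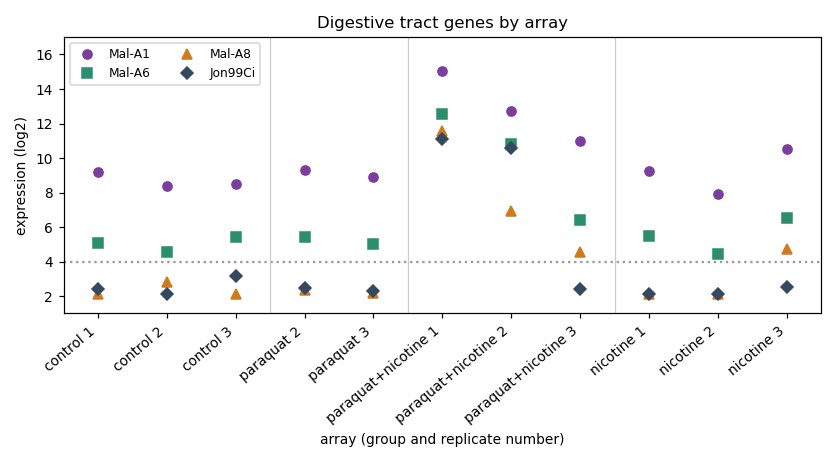
Expression (log2, vertical axis) on all 11 arrays of the 4 digestive tract genes with the smallest p, 1 symbol per gene, with the dotted line at log2 4. Joint replicates 1 and 2 stand above the other arrays, while joint replicate 3 lies at 10.98 for Mal-A1 and 2.41 for Jon99Ci.

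The paraquat effect on nicotine food was then set beside the paraquat effect on plain food, whose group means use none of the same arrays. Both were normalized together and share an error estimate for each probe set, taken from all 11 arrays. The 2 sets of calls are thus not independent. On plain food 31 probe sets were called (0.341%), and 24 were called on both, which is 58.5% of the 41 and 77.4% of the 31. All 41 had the same sign on plain food, and all 31 had the same sign on nicotine food, where their groups did not overlap. The median size of the 31 was 2.77 log2 on plain food and 2.28 on nicotine, and these were chosen by their plain-food values. The 41, chosen on nicotine, had medians of 2.44 on nicotine and 2.42 on plain food. Over all 9104 probe sets the sign was shared by 66.8%, and the Pearson and Spearman correlations of the 2 effects were 0.545 and 0.493, as a description across probe sets that share a normalization. Cyp6d2 differed by 4.73 on nicotine and 4.82 on plain food, AOX1 by 3.39 and 3.29, Ku80 by 3.95 and 3.88 and Odc2 by -2.38 and -2.44. The plain-food arrays had midgut marker sums of 10.40 to 10.85 with paraquat, inside the control range. The part of the midgut signal in the changes on nicotine food was not tested.

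**Figure D5:**
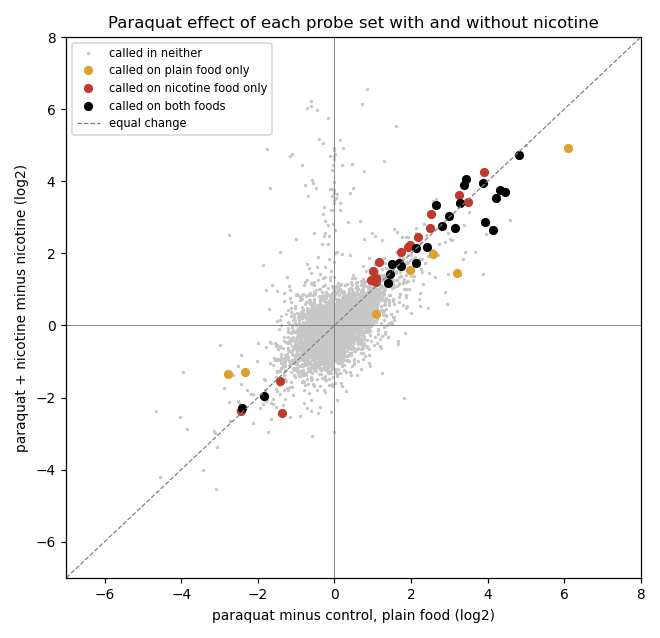
Log2 change with paraquat on plain food (horizontal axis) against the change on nicotine food (vertical axis), 1 point per probe set, 9104 in all, with called probe sets coloured and the dashed line marking equal change. All called points lie in the quadrants of equal sign, and a column of uncalled grey points is high on nicotine food only.

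Whether nicotine altered the response was tested by the interaction, the paraquat effect on nicotine food minus that on plain food. By limma 0 of 9104 probe sets passed (0%, smallest adjusted p = 0.9997), and 112 had an unadjusted p below 0.05, fewer than the 455 that chance alone would give. The median standard error was 0.40 log2, against 0.26 for the paraquat effect itself, and a missed threshold does not show that the effects were equal. For Cyp6d2 the difference was -0.09 with a 95% interval from -1.62 to 1.44, and for AOX1 it was 0.10 (-0.79 to 0.999). Ku80 had a difference of 0.07 (-1.77 to 1.91). The widest gap among the called genes was that of CG13659, which rose by 4.13 on plain food and by 2.64 on nicotine (difference -1.49, unadjusted p = 0.0449). Obp56h was at 11.44, 11.72 and 11.38 in control and 10.28 and 10.01 with paraquat, a change of -1.37 against -2.44 on nicotine (difference -1.07, 95% interval -1.82 to -0.32, unadjusted p = 0.01). On nicotine its start was higher and its end similar. The 5 smallest interaction p-values belonged to tkv, CG31125, CG15629, Utx and Obp56f. The signalling receptor gene tkv, for example, was at 0.06 on nicotine and 1.51 on plain food (unadjusted p = 0.00213) by a probe set that lay below log2 4 on the nicotine and joint arrays, while its other probe set was at -0.13 and -0.18. MtnC differed by 3.95 on nicotine and -0.55 on plain food (unadjusted p = 0.00893). None of these passed adjustment. On the joint arrays MtnC fell from replicate 1 to replicate 3. The digestive list's median did so too (4.97, 3.49 and 0.15 log2 from the nicotine mean). The interaction count was 21 without joint replicate 3, 2 without nicotine replicate 2 and 1 without joint replicate 1. Joint replicate 3 was the joint array with the lowest digestive median. The part of the midgut signal in the interaction values was not tested.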

How the data were processed

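Affymetrix Drosophila arrays measured total RNA of pooled heads, amplified from the 3-prime end. The authors deposited log2 values, 1 for each probe set and array, made with GCRMA per the submitters' processing notes. GCRMA adjusts background, normalizes quantiles and summarizes probes. For its version and settings, the sources used here give none. The values were used as deposited, for 18952 probe sets.

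After leaving out 183 control probe sets and those reaching log2 4 on fewer than 2 arrays, 9104 were tested (7800 naming 1 gene, 228 several and 1076 none). Symbols come from the platform annotation, updated through the RefSeq gene table for 7776 probe sets. No genome build is named, so no coordinates are given. One mean per group was fitted to all 11 arrays with limma 3.58.1 in R 4.3.3 (lmFit, eBayes, 7 residual and 2.48 prior degrees of freedom). Tests were two-sided, adjusted by Benjamini-Hochberg over the 9104. Errors after ± are standard errors. With a group wholly below log2 4, values below it were set to 4 and the fold is a lower bound. The fit was tested on simulated data.

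Members, lists and tests were chosen with earlier results of these data known, and the lists got no set test. Named genes are the 15 largest called rises and falls of exactly 1 gene without overlap between groups, up to 4 genes of smallest p per list, the study's subject genes (p53, park, Pink1, GstD1, Cat, Sod1, Sod2, Ddc and ple), and the 5 smallest interaction p-values. Neither Sod1 nor park was analysed here, for want of a probe set that names it alone. Genes named to complete a pathway, and those said to be so, were chosen after their values were seen. Lists use 1 probe set per gene, that of highest mean. The main fit did not pair arrays by replicate number. Deviations of same-numbered arrays from their group means correlated at 0.05, -0.05 and 0.16, and those of differently numbered arrays at -0.235 to 0.179. With 3 arrays per group these values cannot show whether same-numbered arrays shared a batch. Alternatives were other filters, variance priors, centring, array weights, a replicate block, an RNA integrity covariate, 1 probe set per gene, the 6 arrays alone and leaving out each array. With 1 paraquat array left, that array is assumed to vary like the other groups. The promoter motif search that was planned was not run, for want of sequences. The number of arrays limits the precision.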

Additional observations from a re-analysis of the deposited data

How the results depend on the processing

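The number of probe sets called was 41 (36 higher, 5 lower). It was 2 (2 and 0) with only the 6 arrays compared, where 785 had an unadjusted p below 0.05, 9 (6 and 3) without the low-value filter, and 312 (241 and 71) with array weights. The trended robust prior gave 8 lower calls, and so did 1 probe set per gene. The interaction count was 3 without the filter. With the replicate block 32 were called, 30 of them among the 41. Of the 20 genes named by size, 2 kept their call with the 6 arrays, 5 without the filter, 16 with the block, 18 with the integrity covariate and 8 to 20 when 1 array was left out, and 0 changed direction in any setting. Leaving out 1 array gave 12 to 242 calls (10 to 150 higher, 2 to 92 lower) and 0 to 21 interaction calls. The array weights ran from 0.231 (joint replicate 1) to 5.82. With them the list medians were 0.086 for P450 genes, 0.34 for UDP-glycosyltransferases, -0.16 for insulin and nutrient genes, -0.18 for Turandot genes, -0.38 for monoamine genes, 0.022 for heat shock proteins, 0.11 for haemocyte genes, 1.66 for digestive tract genes and 0.39 for aldo-keto, aldehyde and carbonyl enzymes. With a filter at log2 6 they were 0.40 for piRNA and germline and -1.15 for Turandot genes, and with the covariate -0.15 for insulin and nutrient genes. When 1 array was left out, medians ran from -0.052 to 0.21 for UDP-glycosyltransferases, 0.40 to 0.58 for metal handling, 0.39 to 0.83 for piRNA and germline, -0.37 to -0.17 for insulin and nutrient genes, -0.20 to -0.036 for Turandot genes, -0.72 to -0.40 for neuropeptides, -0.28 to -0.00258 for glial genes, 0.043 to 0.22 for Parkinson's disease genes, -0.10 to 0.058 for autophagy and 1.87 to 4.54 for the digestive tract. The uncalled change of tkv on nicotine, 0.06, ran from -0.10 (without nicotine replicate 3) to 0.26. The cause of these shifts was not tested.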

Other observations

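Some gene groups outside the comparisons above had values set by 1 or a few arrays. In the cytosolic ribosome list 26 of 27 genes had a change below 0, with a median of -0.25 log2, 7 lay wholly below (25.9%, against 7.12% of all genes) and 0 were called. RpS30 was at 14.91, 14.74 and 14.98 on the nicotine arrays and at 13.20, 14.87 and 14.43 on the joint arrays, so joint replicate 1 was the lowest and replicate 2 lay within the nicotine range. RpL34a gave the same order (13.28, 12.84 and 13.47, then 11.37, 13.02 and 12.50). COX7C, a subunit of the respiratory chain, lay at 14.82, 14.79 and 14.90 and then at 13.34, 14.80 and 14.44. Of 56 oxidative phosphorylation genes 46 had a change below 0 (median -0.21), and of 71 mitochondrial ribosome genes 50 (median -0.24), with 0 calls in either. Joint replicate 1 is the array that stood apart, and its 3-prime minus 5-prime control difference was 9.50. That difference was 9.58 on joint replicate 3 and 9.30 on nicotine replicate 3. RpS30, RpL34a and COX7C were higher on both of those arrays than on joint replicate 1. The part of RNA integrity in these values was not tested.

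A few cuticle and stress-peptide genes had large differences that did not pass. The cuticle protein gene Lcp65Ac was at 6.17, 5.27 and 5.69 on nicotine and at 3.51, 4.15 and 2.67 with paraquat added (-2.27 ± 0.49 log2, limma adjusted p = 0.106). Edg91, another cuticle gene, was at 9.35, 6.45 and 9.03 and then at 5.92, 4.93 and 5.15 (-2.94, adjusted p = 0.170), and its plain-food change was -0.02. Of 26 cuticle genes 3 lay wholly below and 1 wholly above (11.5% and 3.85%, against 7.12% and 8.84% of all genes, so near the background). Diedel, a secreted immune regulator, was at 9.04, 7.85 and 10.25 and then at 5.36, 6.42 and 6.54 (-2.94, adjusted p = 0.147). The Turandot stress peptide gene TotC was at 14.06, 13.51 and 13.85 and then at 10.43, 13.05 and 11.72 (-2.07, adjusted p = 0.1505). Of the 6 Turandot and JAK-STAT genes tested, 3 had a change above 0 and 3 below, with a median of -0.09. Wholly below lay 2 of them (33.3%, against 7.12% of all genes) and wholly above 0. Among autophagy genes ref(2)P, a receptor for ubiquitin-tagged cargo, was at 12.63, 12.61 and 12.18 and then at 13.09, 13.28 and 13.24 (0.73 ± 0.17, adjusted p = 0.128). None of these 5 genes was called, and in each the joint and nicotine arrays did not overlap.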
